A study of Mus musculus with 2 samples.

Results

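Of the 7951 cell barcodes in 2 single-cell RNA libraries of GR1+ cells from 4T1 mouse breast tumors, 905 held fewer than 500 detected genes with no more than 10% of their UMIs (unique molecular identifiers, each standing for 1 captured RNA molecule) from mitochondrial genes. These barcodes, called low-complexity barcodes here, numbered 313 of 2947 in the 4T1P library (10.6%, 95% exact binomial interval 9.53 to 11.8) and 592 of 5004 in the 4T1M library (11.8%, interval 10.9 to 12.8). They were chosen by their number of genes and their mitochondrial share, so neither is a finding, and all comparisons of their RNA with other barcodes are descriptions. The question was what they were: neutrophils with little RNA, erythroid cells, debris or free RNA.

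4T1P tumors grow from the parental line, which did not respond to anti-PD1, and 4T1M tumors from a mutagenized clone of it that did, both in BALB/c mice given as 6 to 8 weeks old in the labels, while the study's methods give another age. Cells carrying GR1, an antigen of neutrophils and some monocytes, were isolated magnetically from the tumors, and the labels name no treatment of these samples. Each condition is 1 library made from pooled mice, 5 by the submitters' text though the published study gives another number. The study calls 4T1M a clone, but its methods describe the mutagenized cells as multiclonal. There is therefore no replicate and no test between conditions, and every interval covers counting error only. The 4T1P library held 21855657 UMIs and the 4T1M library 24303957, over 32285 features, and the low-complexity barcodes held 265139 (1.21%) and 463823 (1.91%) of them. The libraries shared 5 barcode sequences, 1 of which was a low-complexity barcode in 4T1P and 0 in 4T1M. No doublet caller was run.

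Neutrophils carry little RNA compared with macrophages or lymphocytes, and much of it codes for the calcium-binding proteins S100a8 and S100a9 and for inflammatory chemokines. Red blood cells lose their nucleus as they mature and keep mostly hemoglobin mRNA. Malat1 and Neat1 are long noncoding RNAs that stay in the nucleus, whereas free RNA released from broken cells gives a droplet a blend of whatever the suspension contains.

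The low-complexity barcodes were shallow. In 4T1P their UMI counts ran from 500 to 5982 with a median of 696, and in 4T1M from 501 to 4235 with a median of 711.5. Barcodes with 500 to 5000 genes and the same mitochondrial limit, the reference of 1726 and 3461 barcodes, had medians of 3902.5 and 3183 UMIs. When every barcode was thinned to 500 UMIs, the median number of genes was 296 against 320.5 in the 4T1P reference and 292 against 297 in 4T1M. These medians mix classes in different proportions. For barcodes matched to the neutrophil-like profile, as described next, they were 227 against 268 in neutrophil-like reference barcodes in 4T1P and 265 against 274 in 4T1M, and for those matched to cluster 1 318 against 339 and 320 against 332. Barcodes with 450 up to 500 genes, 48 in 4T1P and 125 in 4T1M, had median depths of 867 and 949 UMIs, and the 47 and 122 with 500 up to 550 genes had 988 and 1112. Median mitochondrial shares were 2.496% and 2.35%, against 3.71% and 2.28% in the reference. A further 352 and 430 barcodes with under 500 genes exceeded the mitochondrial limit and are not described.

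**Figure D1:**
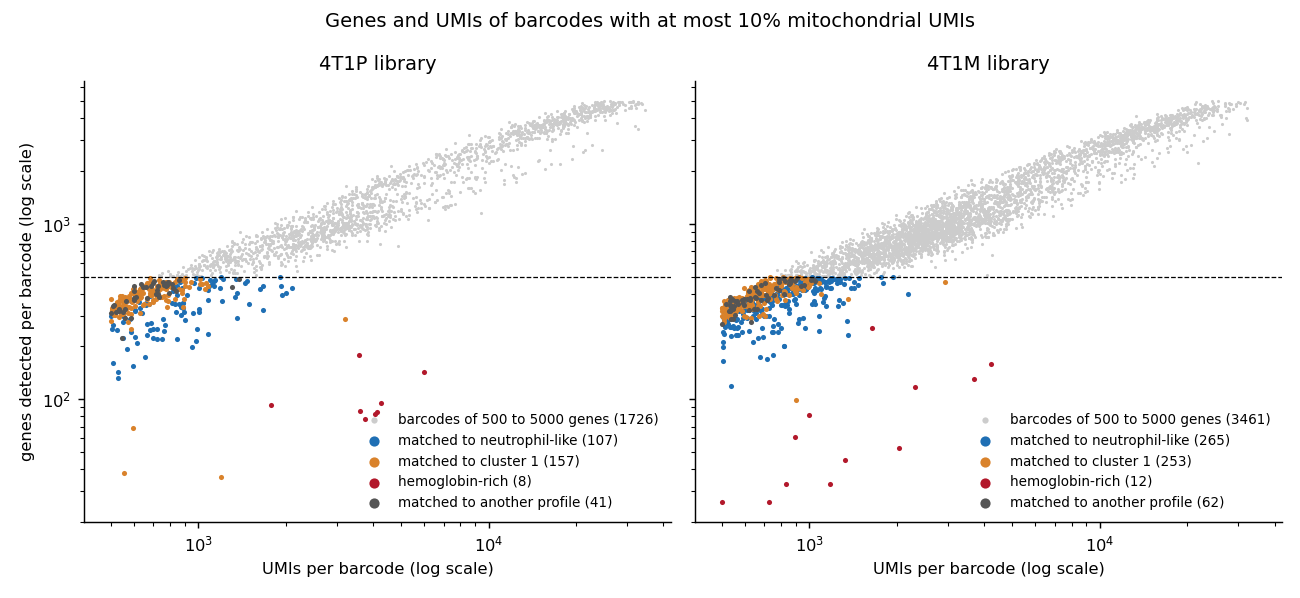
Genes detected against UMIs for each barcode with at most 10% mitochondrial UMIs, both on log scales, with low-complexity barcodes colored by the expression profile they matched and the dashed line at 500 genes. Most low-complexity barcodes continue the cloud of deeper barcodes downwards, while the 8 and 12 hemoglobin-rich barcodes lie far below it, with median gene numbers of 89.5 and 57.

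Each low-complexity barcode was matched to the summed profiles of the cell classes of its own library, built from the reference barcodes, and to the sum of the whole library, which stands in for free RNA. In 4T1P, 107 of 313 (34.2%, interval 28.9 to 39.7) matched the neutrophil-like profile, and in 4T1M 265 of 592 did (44.8%, interval 40.7 to 48.9). Neutrophil-like barcodes made up 42.4% and 63.7% of the reference. The other large set matched cluster 1, a cluster of 766 reference barcodes that stays unnamed because the immunoglobulin genes Jchain and Igkc were among its leading genes, although all 15 monocyte and macrophage markers were detected in it. Cluster 1 took 157 barcodes in 4T1P and 253 in 4T1M beside the hemoglobin-rich ones, but it was 20.5% and 11.9% of the reference. Smaller sets matched the monocyte/macrophage-like profile (15 and 18 barcodes) and the B and plasma cell-like profile (0 and 2). Cluster 4, led by Thbs1, Mmp12 and the globin gene Hbb-bs, took 14 and 13 beside the hemoglobin-rich ones. There was no erythroid profile, and the 8 hemoglobin-rich barcodes of 4T1P fell to cluster 1 and the 12 of 4T1M to cluster 4. No barcode matched the T and NK-like or the dendritic-like profile. The whole-library sum fitted best for 12 barcodes (3.83%, interval 1.996 to 6.60) and 29 barcodes (4.90%, interval 3.30 to 6.96). Reference barcodes held out of the profiles and thinned to the same depths gave the error of the matching: 368 of 387 neutrophil-like barcodes (95.1%) in 4T1P and 1065 of 1121 in 4T1M returned to their class. The whole-library sum fitted best for 18 of those 387 and 54 of those 1121, and for 21 of 476 and 34 of 610 held-out barcodes of other classes, so its share among low-complexity barcodes was close to the error of the matching. That sum holds only deposited barcodes, with at least 500 UMIs each, so free RNA of another make-up was not tested. None of the 476 and 610 held-out barcodes of other classes matched the neutrophil profile, and 76.6% and 79.3% of cluster 1 barcodes returned to cluster 1. Across the 500-gene limit the neutrophil-matched share was 33.3% inside and 31.9% outside in 4T1P, and 44.8% and 56.6% in 4T1M.

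Marker genes separated the same sets. The 15 neutrophil markers took 7.94% of all UMIs of low-complexity barcodes in 4T1P and 6.998% in 4T1M, against 3.65% and 5.37% in the reference and 2.65% and 4.84% in the whole libraries. The median barcode did not show this: at 500 UMIs it held 1 against 1 neutrophil marker UMI in 4T1P and 3 against 13 in 4T1M. In the neutrophil-matched barcodes these markers took 21.1% and 13.8%, beside 16.6% and 12.8% in neutrophil-like reference barcodes, and in cluster 1-matched barcodes 0.136% and 0.222%. The 15 monocyte and macrophage markers, which include the receptor gene Csf1r, the complement genes C1qa, C1qb and C1qc and the lipid carrier gene Apoe, ran the other way: 0.104% and 0.0987% of the UMIs of neutrophil-matched barcodes and 1.70% and 1.93% of those of cluster 1-matched barcodes, near the 1.76% and 2.04% of reference cluster 1. Matching used these genes too, so the separation is partly built in.

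How far both marker sets met in 1 barcode was read after thinning to 500 UMIs. A draw of 500 UMIs from the summed library would hold on average 13.2 neutrophil and 5.83 monocyte/macrophage marker UMIs in 4T1P, and 24.2 and 5.00 in 4T1M. At least 3 UMIs of each list were found in 3 of 107 (2.80%) neutrophil-matched barcodes in 4T1P and 13 of 265 (4.91%) in 4T1M, beside 2.60% and 2.72% of neutrophil-like reference barcodes. Without thinning these shares were 9.35% and 8.30% at median depths of 845 and 818 UMIs, against 32.9% and 30.8% at 2909.5 and 2725. Among the barcodes that matched the whole-library sum, 3 of 12 and 10 of 29 held both. Neutrophil marker UMIs were also found in barcodes of other profiles, and their source was not tested: 60 of 157 cluster 1-matched barcodes (38.2%) in 4T1P and 149 of 253 (58.9%) in 4T1M had at least 1 neutrophil marker UMI among 500. Reference cluster 1 had 27.5% and 44.1%, and monocyte/macrophage-like barcodes 37.3% and 46.6%. Their unthinned shares were 43.9% and 69.6% for cluster 1-matched barcodes at median depths of 636 and 652 UMIs, and 65.4% and 81.8% for cluster 1 at 1982 and 1877.

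**Figure D2:**
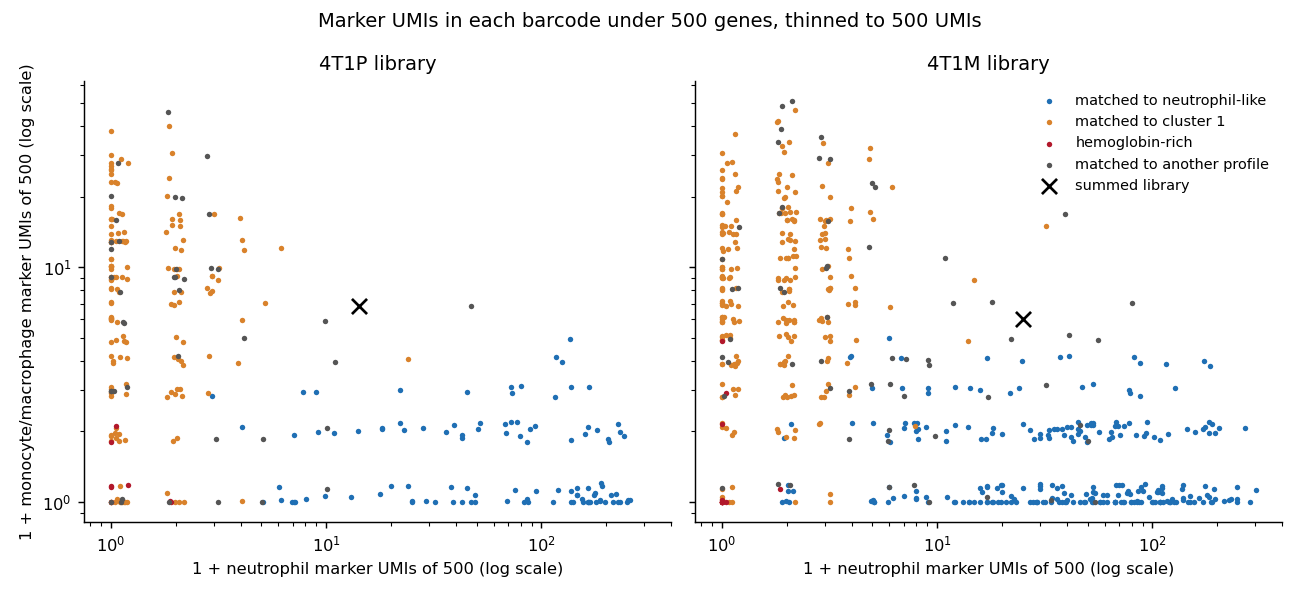
Each point is 1 low-complexity barcode thinned to 500 UMIs, with 1 plus its neutrophil marker UMIs on the x axis and 1 plus its monocyte/macrophage marker UMIs on the y axis, both on log scales, and the cross is the summed library. Neutrophil-matched barcodes lie along the bottom and cluster 1-matched barcodes along the left, and few points lie near the cross.

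Markers of other cells were close to 0. The 10 T and NK cell markers gave 9 and 12 UMIs in all low-complexity barcodes together, the 5 mast cell and basophil markers 1 and 2, the 5 eosinophil markers 1 and 2, and the 7 dendritic markers 1 and 2. Platelet markers were limited to Pf4, with 93 and 51 UMIs, a chemokine gene that macrophages also express. The keratin genes Krt8 and Krt18 and the other epithelial markers of the tumor cells gave 39 and 51 UMIs (0.0147% and 0.0110%, against 0.00294% and 0.00450% in the reference). The B and plasma cell list gave 8 and 151 UMIs, 7 of the former from Ighm, the mu heavy chain, and 84 of the latter from Igkc, the kappa light chain.

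Hemoglobin mRNA was confined almost wholly to a few barcodes. Erythroid genes made up at least 10% of UMIs in 8 low-complexity barcodes in 4T1P (2.56%, interval 1.11 to 4.97) and 12 in 4T1M (2.03%, interval 1.05 to 3.51). Those barcodes held 29460 of the 29461 erythroid UMIs in 4T1P and 18666 of 18678 in 4T1M, and no more than 1 of 305 and 11 of 580 other low-complexity barcodes had any. Erythroid genes filled 90.4% to 96.7% of their UMIs in 4T1P and 76.9% to 97.1% in 4T1M. The beta globin gene Hbb-bs (chromosome 7, 103826534 to 103828096, GRCm38) took 62.4% and 60.5% of their UMIs. Alas2, which encodes the first enzyme of heme synthesis in red cell precursors, was found in 8 of 8 (116 UMIs) and 10 of 12 (77 UMIs). The membrane protein gene Slc4a1 was near 0 (2 and 1 UMIs), and Klf1 and Hemgn, expressed in nucleated precursors, had 0 in both libraries. Malat1 was detected in 2 of the 8 and 5 of the 12. Their depth was above the median of all low-complexity barcodes in 4T1P and ran over the whole range in 4T1M, with 1785 to 5982 UMIs (median 3911.5) over 77 to 179 genes in 4T1P and 501 to 4235 (median 1253) over 26 to 254 genes in 4T1M. Counts of Hba-a1 and Hba-a2, near-identical alpha globin genes, and of Hbb-bs and Hbb-bt cannot be apportioned firmly, but alpha over beta UMIs ran from 0.239 to 0.531 and from 0.317 to 0.707. Because of them Hbb-bs was the most abundant gene of the 4T1P low-complexity barcodes, at 73407 CPM (UMIs of the gene per 1000000 of their summed UMIs) against 372 in the reference, and 26573 against 315 in 4T1M. The reference held 2 and 4 barcodes this rich in erythroid genes. The erythroid share of all low-complexity barcodes, 11.1% and 4.03%, was 0.000427% and 0.00271% without them.

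Gm42418 (chromosome 17, 39846958 to 39848788) was also uneven. It overlaps a ribosomal RNA repeat, so its reads may come from ribosomal RNA. It took at least 10% of UMIs in 20 low-complexity barcodes in 4T1P (6.39%, interval 3.95 to 9.70) and 17 in 4T1M (2.87%, interval 1.68 to 4.56), against 2.09% and 1.16% of reference barcodes, and reached 96.2% and 84.1% of the UMIs of a single barcode. Of these, 15 and 12 matched cluster 1 and 1 and 2 matched the neutrophil profile. Without them its level in low-complexity barcodes was 13241 CPM in place of 42755, and 13615 in place of 23218.

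Malat1 (chromosome 19, 5795690 to 5802672) divided the neutrophil-matched barcodes into a set without it and a set with it. At 500 UMIs, 42 of 107 neutrophil-matched barcodes in 4T1P (39.3%, interval 29.95 to 49.2) and 50 of 265 in 4T1M (18.9%, interval 14.3 to 24.1) had no Malat1 UMI. In neutrophil-like reference barcodes thinned alike, 4 of 732 (0.546%) and 5 of 2206 (0.227%) had none. Without thinning the shares were 37.4% and 17.0%, against 0.137% and 0.0453%. Of the 65 and 215 with Malat1, 18 and 20 had 1 to 7 UMIs of 500, and 47 and 195 had at least 8, which was 43.9% and 73.6% of all neutrophil-matched barcodes. The medians over all neutrophil-matched barcodes were 1 and 30 UMIs, against 18 and 17 in the reference. The summed level hid the split: Malat1 was at 40435 CPM in neutrophil-matched barcodes and 33518 in neutrophil-like barcodes of 4T1P, and at 62263 and 33030 in 4T1M. Leaving Malat1 and Neat1 out of the matching kept 106 of the 107 and 262 of the 265 barcodes, with 39.6% and 19.1% lacking Malat1.

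**Figure D3:**
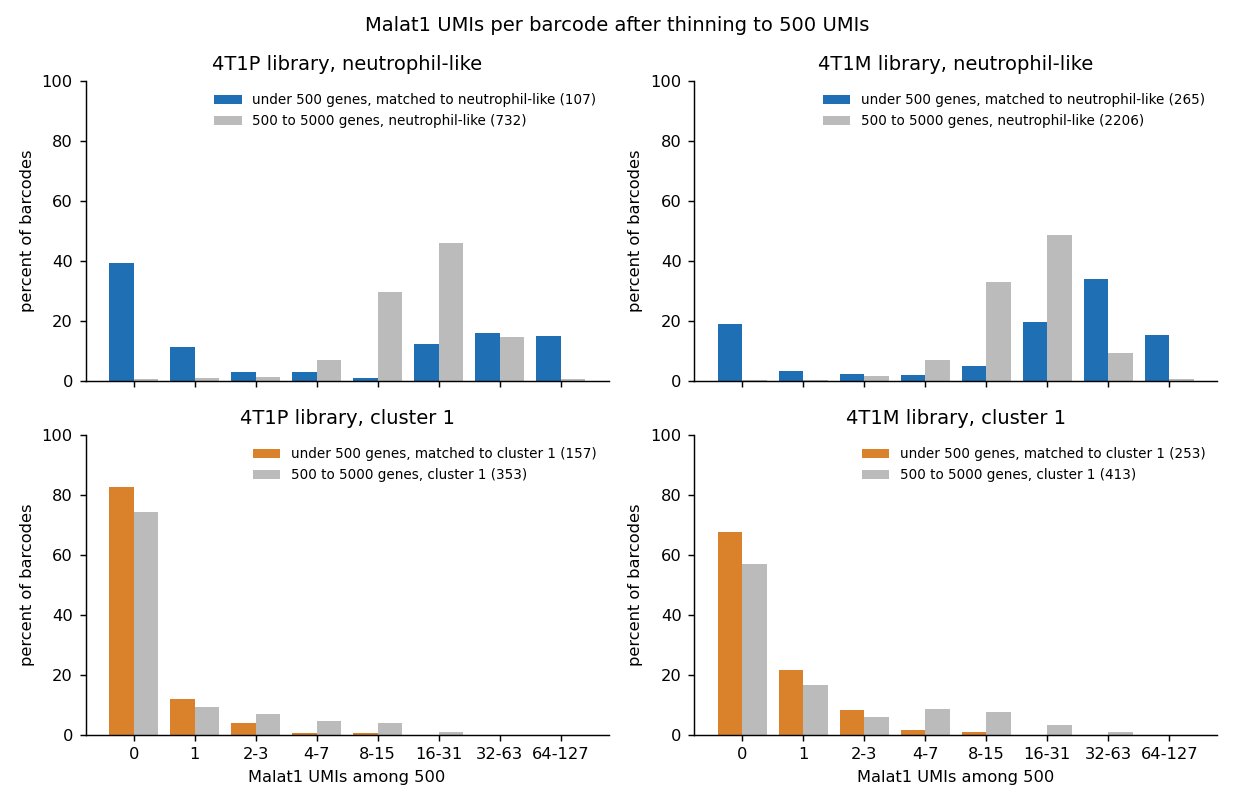
Percent of barcodes by number of Malat1 UMIs after thinning to 500 UMIs, for low-complexity barcodes and their reference class in each library. Neutrophil-matched barcodes have a peak at 0 (39.3% and 18.9%) that neutrophil-like reference barcodes lack (0.546% and 0.227%), whereas both sets of cluster 1 are mostly at 0.

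The share without Malat1 fell as genes rose. Among neutrophil barcodes it was 63.9% under 300 genes, 40.0% from 300 to under 400 and 13.9% from 400 to under 500 in 4T1P, and 41.9%, 22.2% and 3.54% in 4T1M. From 500 to under 600 genes it was 0 of 38, with an interval reaching 9.25%, and 0.592%, and it was at most 1.15% in every group above. Cluster 1 showed no such step. Its share without Malat1 lay between 75% and 85.7% in 4T1P and between 64% and 72.7% in 4T1M in every group under 1000 genes, on both sides of the 500-gene limit, and was 62.1% and 38.2% at 1000 to 5000. Over all cluster 1-matched barcodes it was 82.8% and 67.6%, and in reference cluster 1 74.5% and 57.1%. In monocyte/macrophage-like reference barcodes, which express many of the same markers, it was 6.56% and 3.62%, yet 12 of 15 and 15 of 18 low-complexity barcodes matched to that profile lacked Malat1.

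**Figure D4:**
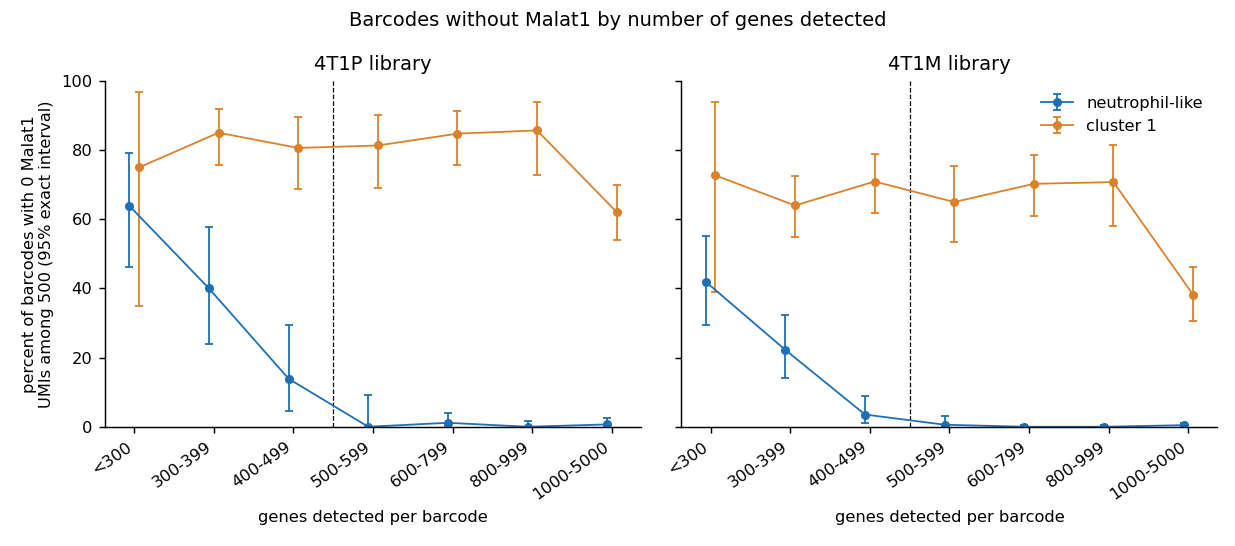
Percent of barcodes with 0 Malat1 UMIs among 500 (points, with 95% exact intervals) by genes detected, for neutrophil and cluster 1 barcodes of each library, with the dashed line at 500 genes. The neutrophil curve falls from 63.9% and 41.9% to near 0 at the line, and the cluster 1 curve stays above 60% until 1000 genes.

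Neutrophil-matched barcodes with and without Malat1 had nearly the same depth and different contents. Median UMIs were 835.5 in the 42 without and 848 in the 65 with Malat1 in 4T1P, and 752.5 in the 50 and 822 in the 215 in 4T1M. At 500 UMIs those without held fewer genes, 193.5 against 255 and 211 against 272. Neat1, which the split did not use, was found at 500 UMIs in 0 of 42 and 39 of 65 (60.0%), and in 0 of 50 and 169 of 215 (78.6%). Unthinned, it was found in 1 of 42 and 0 of 50 barcodes without Malat1. S100a8 stood at 120040 CPM without Malat1 and 47592 with it in 4T1P, and at 93250 and 35677 in 4T1M. S100a9, its partner in calprotectin, stood at 176311 and 76127, and at 144200 and 61968. The neutrophil markers together took 31.96% of UMIs without and 14.0% with Malat1, and 25.7% and 11.2%. Ribosomal protein genes took 4.99% and 3.05%, and 4.12% and 2.71%. Mitochondrial genes took 3.46% and 4.21%, and 2.505% and 3.15%.

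Some other genes divided with Malat1 the same way in both libraries. Of 142 genes with at least 1000 CPM on a side in each library, Malat1 left out, 33 were more than 2-fold higher with Malat1 in both, 15 more than 2-fold lower in both, and 0 past 2-fold in opposite directions. The rest were not past 2-fold in both, among them Ccl3 (log2 ratios 0.95 and -0.11) and Fth1 (0.04 and -0.94). The 142 genes entered by their level on either side, which favors genes that differ, so these counts are not shares of all genes. The genes of this paragraph were chosen after their values were seen. Higher with Malat1 were Ccnl1, a cyclin gene linked to splicing (log2 ratio 4.82 in 4T1P and 4.03 in 4T1M), and the splicing factor gene Tra2a (3.34 and 4.604). The transcription factor genes Zeb2 (3.30 in 4T1M) and Jun (2.13 and 3.58) were higher too, as was Ptprc, which encodes CD45 (2.52 and 3.07). In 4T1P Zeb2 had 66 UMIs with Malat1 and 2 without, below the floor of 3 UMIs, so no exact ratio is given. The chaperone gene Hspa1a had a log2 ratio of 2.76 in 4T1P, and in 4T1M it was at least 26.9-fold higher than the floor of 3 UMIs over the 50 barcodes, where it had 0. Lower with Malat1 were S100a6 (-1.94 and -1.78), the stefin gene Stfa3 (-1.72 and -3.03), Lcn2, which encodes an iron-chelator-binding lipocalin of neutrophil granules (-1.44 and -1.61) and the glycolytic gene Gapdh (-1.36 and -2.17). Stefin genes are near-identical, so their counts are uncertain. The neutrophil cluster with the nearest profile, with Malat1 and Neat1 left out, was cluster 3, led by Retnlg and Stfa2, for 27 of 42 and 33 of 50 barcodes without Malat1, and cluster 10, led by Camp, Ngp and Ltf, for 12 of 42 and 8 of 50. With Malat1 it was most often cluster 0 (29 of 65 and 87 of 215), and cluster 10 for 2 of 65 and 5 of 215. Over all neutrophil-matched barcodes cluster 10 was nearest for 13.1% and 4.91%, and it was 5.05% and 3.26% of neutrophil-like reference barcodes. The 42 and 50 barcodes without Malat1 together held few UMIs of Camp (7 and 3), Ngp (24 and 6) and Ltf (0 and 1). The nearest cluster is therefore not read as a cell type here. In 4T1P the 65 barcodes with Malat1 held 3 UMIs of each of these genes. Of the genes leading cluster 10, Ngp (log2 ratio -3.42, interval -5.99 to -1.89), Ifitm6 (-4.31, -6.85 to -2.88) and Lcn2 were lower with Malat1 in 4T1P. Ifitm6 had 45 UMIs without and 3 with Malat1 there. The intervals of Camp, Ltf, Ly6g, Cd177 and Chil3 held 0.

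**Figure D5:**
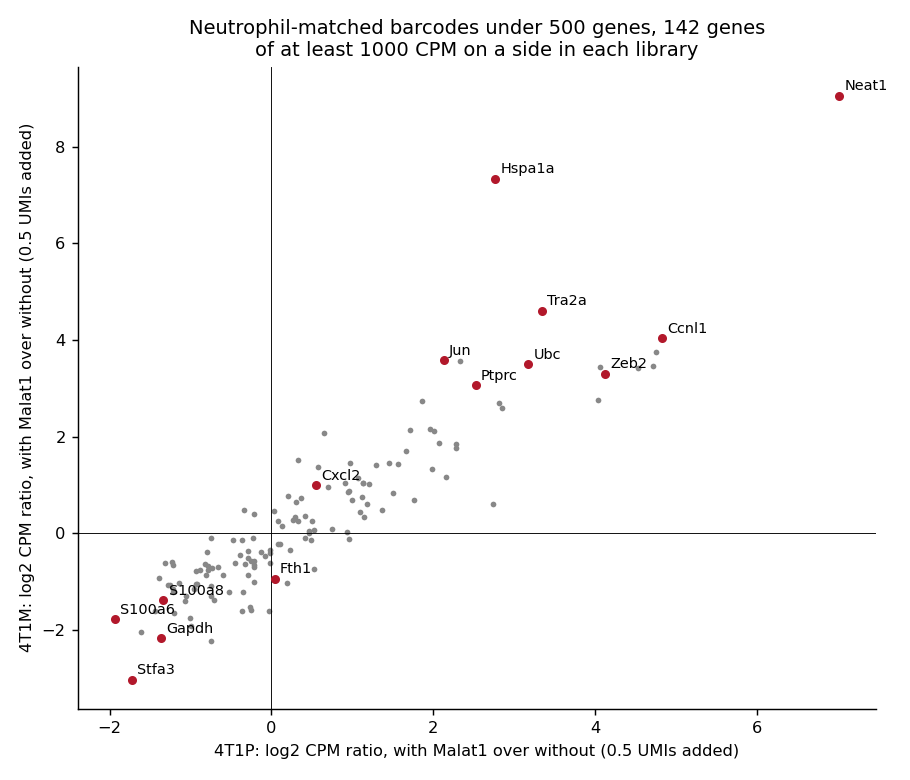
Log2 CPM ratios of neutrophil-matched barcodes with over without Malat1 for 142 genes, 4T1P on the x axis and 4T1M on the y axis, 0.5 UMIs added to each sum. No gene lies past 1 in opposite directions, and Neat1 and Hspa1a in 4T1M are ratios against 0 UMIs that depend on the added value.

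Set against neutrophil-like reference barcodes, all neutrophil-matched barcodes had S100a9 and Srgn at similar or higher CPM and were lower in several other neutrophil genes and in part of the NF-kB feedback and cytokine lists. Of the 15 neutrophil markers 4 were more than 2-fold lower and 1 higher in 4T1P (median log2 ratio -0.61) and 4 lower and 0 higher in 4T1M (median -0.23), where 16.5% and 13.6% of all genes tested were lower. Among them were the gelatinase gene Mmp9 (-1.78 and -1.40) and Lrg1 (-2.88 and -1.14), and Csf3r, the G-CSF receptor gene, had ratios of 0.10 and 0.22. S100a9 was at 115760 CPM against 84825 in 4T1P (log2 ratio 0.45, exact interval 0.42 to 0.48) and 76943 against 63161 in 4T1M (0.28, 0.26 to 0.31). S100a8 was at 76253 against 60230 (0.34, 0.31 to 0.37) and 46162 against 48136 (-0.06, -0.09 to -0.03), and so differed in direction between the libraries. Without cluster 10 the ratios of S100a9 were 0.85 and 0.59 and those of S100a8 0.97 and 0.38, above 0 in both. This left cluster 10 out of the reference only, while the 14 and 13 neutrophil-matched barcodes nearest to it stayed, so the 2 sides were not treated alike. Srgn, the serglycin core protein of granules, was at 10356 against 10818 (-0.06, -0.15 to 0.03) and 10893 against 11106 (-0.03, -0.09 to 0.03). Cxcl2, a chemokine that attracts neutrophils, was at 16115 against 38364 (-1.25, -1.32 to -1.18) and 20959 against 50633 (-1.27, -1.31 to -1.23). In the sums S100a9 was thus higher and Cxcl2 lower in both libraries, and the ratios of Srgn had intervals that held 0. Against the whole neutrophil-like reference, S100a9 was higher in the 42 and 50 barcodes without Malat1 (176311 and 144200 CPM). It was lower in the 65 and 215 with Malat1 (76127 and 61968 CPM). That lower level depended on cluster 10: against the reference without cluster 10, S100a9 was higher in both sets. Cxcl2 was below the level of the whole reference in both sets, at 12573 and 11565 CPM without Malat1 and 18433 and 23051 with it. Of all genes tested, 14.0% were more than 2-fold higher and 16.5% more than 2-fold lower in 4T1P, and 13.8% and 13.6% in 4T1M, with median log2 ratios of -0.03 and 0.06. This balance depended on the UMI minimum of 10: with at least 50 UMIs 205 genes were past 2-fold higher and 739 lower in 4T1P and 380 and 963 in 4T1M, and with no minimum 6283 and 1214, and 7072 and 1330. Of 782 genes of at least 200 CPM, 36 were past 2-fold lower in both libraries and 1 past 2-fold higher in both.

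For the genes of NF-kB feedback no list test was run, and 2 of 11 in 4T1P and 0 of 11 in 4T1M had ratios above 0. In 4T1P 7 of 11 were more than 2-fold lower and 0 higher (median log2 ratio -1.003), and in 4T1M 5 and 0 of 11 (median -0.98), beside the 16.5% and 13.6% of all genes that were lower. Nfkbia, the inhibitor that NF-kB itself induces, had log2 ratios of -1.89 and -1.09, and Nfkbiz -1.93 and -1.17. Both also went with the Malat1 split. With and without Malat1, Nfkbia was at 1973 and 1701 CPM in 4T1P and 4782 and 2794 in 4T1M. Nfkbiz was at 658 and 25.8 CPM, and 1158 and 146, from 1 and 6 UMIs without Malat1. Of 13 cytokine and chemokine genes 5 were past 2-fold lower and 1 higher in 4T1P (median -0.59), and 6 and 0 in 4T1M (median -0.93). They included Cxcl1 (-2.90 and -2.30) and Il1a (-2.21 and -1.34), while Ccl3 was past 2-fold lower in 4T1M alone (-0.92 and -1.62). For immediate early and stress genes the difference between the libraries was not tested: 7 of 15 were past 2-fold lower and 1 higher in 4T1P (median -0.80), against 0 and 1 in 4T1M (median -0.03), where the higher gene was Hspa1a (2.40). The higher gene in 4T1P was its near-identical copy Hspa1b (1.15), so counts of both are uncertain. Interferon-stimulated genes were past 2-fold lower in 5 of 17 in 4T1P (median -0.77) and 1 of 17 in 4T1M (median -0.09), the latter below the share of all genes (13.6%) and the former above it (16.5%). Actin and motility genes had 0 of 12 past 2-fold in either library (medians 0.14 and 0.02).

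By the naming rule, the genes furthest lower in both libraries included Cybb, the catalytic subunit of the phagocyte oxidase (-3.11 in 4T1M), the pattern receptor genes Tlr2 (-2.63 and -1.44) and Cd14 (-1.77 and -1.45), the cystine transporter gene Slc7a11 (-1.59 and -1.54), Hp (-1.77 and -1.72) and Mmp8 (-1.58 and -1.73). In 4T1P Cybb had 1 UMI in the barcodes with Malat1 and 1 in those without, below the floor of 3 UMIs, so no exact ratio is given. Tlr2 had 3 and 0 there, at the floor. The rule also named the granule genes Camp (-4.93 and -6.08), Ltf (-5.27 and -4.25) and Ngp (-3.78 and -5.23), with Ly6g (-1.89 and -1.99) and Ifitm6 (-1.50 and -1.95). These 5 rested on cluster 10, which was 5.05% and 3.26% of neutrophil-like barcodes. Cluster 10 was left out of the reference only, and the 14 and 13 neutrophil-matched barcodes nearest to it stayed. That by itself raises the ratios of the genes leading it. Without cluster 10 the ratios were 3.30 and 1.39 for Camp, 0.27 and 0.15 for Ltf, 1.58 and -0.12 for Ngp, 0.15 and -0.38 for Ly6g, and 0.65 and -0.26 for Ifitm6, from at most 49 UMIs in the neutrophil-matched barcodes. Cybb (-2.45 in 4T1M), Tlr2 (-2.71 and -1.47), Hp (-1.24 and -1.42) and Mmp8 (-1.14 and -1.35) stayed lower past 2-fold without it. Over all 10 granule genes tested 9 were past 2-fold lower in each library (16.5% and 13.6% of all genes), but without cluster 10 there were 0 lower and 2 higher of 7 in 4T1P and 1 lower and 1 higher of 9 in 4T1M, where 18.1% and 13.8% of all genes were lower and 12.9% and 13.3% higher in the 2 libraries. Of the genes furthest higher, Lars2 alone was past 2-fold in both libraries. They included Lars2, a mitochondrial leucyl-tRNA synthetase gene (1.28 and 1.30), Gm42418 (0.95 and 1.05), the stress response gene Ddit3 (0.95 and 1.10), Ankrd12 (1.07 and 0.98), Clk4, a splicing kinase gene (0.83 and 1.01), and Stfa2l1 (1.65 and 0.76).

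Cluster 1-matched barcodes were assigned by these same genes, so their likeness to cluster 1 is partly built in and is given as values. Apoe was at 8038 CPM against 6921 in 4T1P and 8819 against 9337 in 4T1M, the complement gene C1qa at 2654 against 3110 and 3111 against 3465, lysozyme Lyz2 at 8475 against 8922 and 7178 against 7128, and Cd74, the invariant chain of MHC class II, at 6249 against 6099 and 8127 against 7746. The immunoglobulin genes that led cluster 1 were not alike: in 4T1M Igkc was at 200.2 CPM against 10305 and Jchain at 51.5 against 1296, and in 4T1P Igkc had 0 UMIs against 12 and Jchain 0 against 1. In the sums, nuclear RNAs were lower still than in cluster 1. Malat1 was at 764 against 6165 CPM (log2 ratio -3.004, interval -3.34 to -2.70) and 1218 against 9161 (-2.91, -3.11 to -2.72), and Neat1 had 2 and 6 UMIs in all (-4.97 and -4.51). Few barcodes carried the Malat1 sums: at 500 UMIs the median barcode had 0 in both sets and both libraries. At least 8 Malat1 UMIs were found in 0.637% and 0.791% of cluster 1-matched barcodes and 4.82% and 11.9% of cluster 1. Klf6 (-1.23 and -1.46), Zeb2 (-1.11 and -2.24), Jun (-1.06 and -1.77) and Cybb (-1.54 and -1.35) were lower as well. Tmsb4x, an abundant actin-binding peptide gene, was higher (0.37 and 0.52), and Gm42418 was at 81522 against 35921 CPM and 37795 against 21224. The median barcode held 7 against 4 Gm42418 UMIs of 500 in 4T1P and 5 against 3 in 4T1M, and the 15 and 12 barcodes rich in it described above are in this set. Ribosomal protein genes took 19.0% and 20.4% of UMIs, against 16.1% and 15.8% in cluster 1 and 3.83% and 2.97% in neutrophil-matched barcodes. Past 2-fold higher and lower were 9.32% and 19.9% of genes tested in 4T1P, and 6.56% and 22.1% in 4T1M.

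Between the libraries, the mixture of low-complexity barcodes differed, so a ratio over all of them combines composition and content. Of 5396 genes tested in all low-complexity barcodes, 12.1% were more than 2-fold higher in 4T1M and 5.60% more than 2-fold lower (652 and 302 genes). With at least 50 UMIs 143 were higher and 22 lower, and with no UMI minimum 1878 and 1854. Scaling by edgeR's TMM factors gave 445 higher and 388 lower, and by DESeq2's size factors 438 and 555. Among the furthest higher in 4T1M were Zbp1, an interferon-induced nucleic acid sensor (log2 ratio 2.44, interval 1.61 to 3.55), the stress gene Gadd45g (2.27), Skil (1.87), Asprv1 (1.75) and Trib1 (1.69). In neutrophil-like reference barcodes the ratios of these higher genes were 0.92, 0.67, 0.59, 0.06 and 0.41. Furthest lower were Pf4 (-1.67), the monocyte chemokine genes Ccl2 (-1.64) and Ccl7 (-1.59), and the globin genes Hbb-bt (-1.56), Hba-a2 (-1.53) and Hbb-bs (-1.47), the globin genes set by the hemoglobin-rich barcodes. In neutrophil-like reference barcodes these ratios were -1.26 for Pf4, -0.03 for Ccl2, 1.57 for Ccl7, 1.96 for Hbb-bt and 4.89 for Hbb-bs. Hba-a2 was at 0.727 CPM in 4T1P there, below the floor of 3 UMIs, so no exact ratio is given. Hbb-bs was at 2.91 CPM in 4T1P and 91.3 in 4T1M. Ccl7 and the globin genes thus went the other way in these barcodes, but the ratios of Hba-a2 and Hbb-bs were against very low levels.

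Within neutrophil-matched barcodes, 16.1% of 2810 genes were past 2-fold higher in 4T1M and 4.56% past 2-fold lower, with a median log2 ratio of 0.22. In neutrophil-like reference barcodes, which held far more UMIs, the shares were 7.64% and 2.66% of 10297 genes, so counts of the same list in both have different backgrounds. Interferon-stimulated genes were higher in 11 of 17 and lower in 0 (median 1.41), beside 7 of 17 and 0 in neutrophil-like reference barcodes (median 0.92). Immediate early and stress genes were higher in 7 of 15 (median 0.91), beside 0 of 15 (median 0.03), and NF-kB feedback genes in 5 of 11 (median 0.83), beside 1 of 11 (median 0.44). Malat1 was 0.62 higher on the log2 scale in 4T1M (interval 0.57 to 0.67), beside -0.02 in neutrophil-like barcodes, and S100a8 and S100a9 had ratios of -0.72 and -0.59, beside -0.32 and -0.43. The 4T1M library also had the lower share of neutrophil-matched barcodes without Malat1, 18.9% against 39.3%, and the part of that share in these ratios was not tested. With 1 library per condition, tumor line, library and pool of mice cannot be told apart.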

How the data were processed

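GR1+ cells from 4T1P and 4T1M tumors were profiled as 1 10x library each. The deposited matrices hold unnormalized UMI counts for each gene in each barcode, made by the authors, per the labels, with Cell Ranger 4.0.0 (the study's methods name another version) against mm10, and the deposited barcodes had at least 500 UMIs. Depth was 21855657 and 24303957 UMIs over 2947 and 5004 barcodes. Reference barcodes were clustered with Seurat 5.3.0 (SCTransform, 3000 features, 25 components, resolution 0.75), and clusters were named from marker lists. A barcode was matched to class sums by multinomial likelihood over genes other than mitochondrial ones, with 1000 UMIs of the library profile added to each sum. Values are CPM of summed counts. Ratios have 0.5 UMIs added and were given for genes of at least 10 UMIs in both sums together, and 2-fold was the limit. Intervals are 95% exact binomial or conditional intervals (scipy 1.17.1), and cover counting error only. No p-value was computed. Scaling alternatives used edgeR 4.0.16 and DESeq2 1.42.0. Scripts were tested on simulated data. Gene coordinates are of GRCm38. Barcodes, lists and thresholds were chosen with earlier results of these data known. Named genes were those of the rule (S100a8, S100a9, Cxcl2, Srgn, Malat1), the most abundant 10, list members of at least 100 CPM, and the 12 furthest higher and lower in both libraries among genes of at least 200 CPM (6 and 6 between libraries), of which a part is printed, and some genes are not reported here. Other alternatives were the gene and mitochondrial limits, gene minimums, other matching and other reference sets.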

Additional observations from a re-analysis of the deposited data

Results flagged for a closer look

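S100a8 was the one gene of those named in the choice of these barcodes whose ratio of neutrophil-matched over neutrophil-like barcodes went in opposite directions in the libraries with intervals off 0, with log2 ratios of 0.34 in 4T1P and -0.060 in 4T1M. The difference was not tested, since each condition is 1 library. Without cluster 10 in the reference both ratios were above 0, at 0.97 and 0.38, but the neutrophil-matched barcodes nearest to cluster 10 were kept.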

How the results depend on the processing

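No paired analysis was possible because each condition is 1 library. The share of low-complexity barcodes, 10.6% and 11.8% (4T1P, then 4T1M, throughout), was 8.21% and 8.91% with at most 5% mitochondrial UMIs, 6.55% and 6.75% under 400 genes, and 14.0% and 16.9% under 600. For at most 5% mitochondrial UMIs, under 400 genes, equal weight per barcode, and no hemoglobin-rich barcodes, in that order, the neutrophil marker share was 7.68%, 8.73%, 6.78% and 8.99% in 4T1P and 7.74%, 8.46%, 6.08% and 7.32% in 4T1M. The monocyte/macrophage share was 0.951%, 0.705%, 1.10% and 1.01%, and 0.806%, 0.988%, 1.07% and 0.976%. The erythroid share was 14.2%, 18.6%, 2.41% and 0.000427%, and 5.05%, 7.95%, 1.87% and 0.00271%. The neutrophil-matched share was 40.6% and 53.9% by the marker list with the most UMIs, and within its interval under the other 6 settings. Malat1 of all low-complexity barcodes over neutrophil-like ones, -0.90 and 0.01 on the log2 scale, was -1.43 and -0.15 under 400 genes, -1.02 and -0.21 with TMM, -0.97 and -0.23 with DESeq2 factors, -0.72 and 0.077 without hemoglobin-rich barcodes, and in 4T1P -1.38 with at most 5% mitochondrial UMIs. Genes past 2-fold against neutrophil-like barcodes, 2246 and 2676, were 7497 and 8402 with no UMI minimum, 944 and 1343 with at least 50 UMIs, and 3954 and 4185 over all low-complexity barcodes. Between the libraries 954 became 3732, 165 and, over neutrophil-matched barcodes, 580. Removing hemoglobin-rich barcodes, cluster 10, erythroid genes, or Malat1 and Neat1 was chosen after seeing the data. TMM and DESeq2 factors moved all ratios between the libraries by -0.17 and -0.19, and those of all low-complexity barcodes by -0.11 and -0.07 in 4T1P and -0.22 and -0.24 in 4T1M. The causes were not tested.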
